A study of Drosophila melanogaster with 2 samples.

Results

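The distal intronic sites of CG30431 are the bound positions that lie inside genes, away from any promoter. They were taken by position alone from the reproducible set of 3314 sites on genome build dm6. A site was kept when its summit, the base of highest enrichment, lay over 2000 bp from every annotated transcript start, inside a gene and in no exon of any gene. The gene models were those of Ensembl, with transposable elements left out. Of the 3314 summits, 1098 lay over 2000 bp from every start, and 748 of these were inside a gene. Leaving out 22 summits in exons gave 726 distal intronic sites, which is 21.9% of the set (exact binomial 95% interval 20.5% to 23.4%). The other classes were 1466 promoter sites within 500 bp of a start, 750 proximal sites up to 2000 bp from one, and 350 distal sites between genes.

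Binding was measured by chromatin immunoprecipitation and sequencing (ChIP-seq) in whole Drosophila melanogaster embryos aged 0 to 24 h, males and females together. All animals came from 1 transgenic line that stably expresses CG30431 with GFP fused to its C-terminus, and an anti-GFP antibody was used. The series holds 1 group of 2 biological replicates from that line, with no second condition, so no test over samples can be made and none is given. Every tissue of the embryo was pooled across the whole of embryogenesis, so a site cannot be assigned to a cell type or stage, and the tagged protein may not behave like the untagged one.

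CG30431 belongs to the ZAD family of zinc-finger proteins, a large insect family in which an N-terminal zinc-associated domain pairs protein molecules and an array of C2H2 fingers reads DNA. Several family members act at promoters or at the boundaries of chromosomal domains. In flies, the long introns of developmental genes are a common place for enhancers, the distal elements that set where and when a gene is transcribed, and first introns are often the longest. An intronic site need not act on the gene that contains it, and the word host is used below only for position.

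The sequences that recurred at these sites were built on the 5 bases CACTG. They came in 2 forms, first seen in earlier work on the same peaks: CACTGTG, found by the words CACTGTGC and CACAGTGG, and CACTGA, found by the words CACTGAGA and TACACTGA. Each word was searched on both strands of a window reaching 100 bp to each side of the summit. Of the strongest sites with a word of the first form, 7 are shown to make its flanks visible. Each line gives 30 bases on the strand that reads CACTGTG, with the matched word or words in capitals.
CG32264 (chr3L:3785142-3785171, minus strand): cccctaattgcCCACTGTGCatcccactgt
Ubr3 (chrX:7938430-7938459, minus strand): gcccctcgcgaCCACTGTGCgtgtttttgt
ex (chr2L:442027-442056, plus strand): actccgtttctaCACTGTGCaaaagaaatg
CHES-1-like (chrX:7700454-7700483, plus strand): caagcgagtgcCCACTGTGCgccaaacagt
CG8034 (chrX:19289430-19289459, minus strand): ataggcagtgcCCACTGTGCtgcaatgcga
Wwox (chr2L:8001723-8001752, minus strand): gctcgaatggctCACTGTGCatgctgtcaa
Sema1a (chr2L:8575070-8575099, minus strand): ttgcgcttgaaCCACTGTGCacccaaaata

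Of the strongest sites with the second form, 7 are shown in the same way, on the strand that reads CACTGA. In most of them a run of purines, largely A, follows the core.
aos (chr3L:16480637-16480666, minus strand): tgtgagtggcTACACTGAgcaaagttcttt
aop (chr2L:2163718-2163747, minus strand): gaagacgtgatgCACTGAGAgaaatcaggt
CG34417 (chrX:6549803-6549832, plus strand): ggggctcagcTACACTGAaagaaacgagtt
eff (chr3R:14738724-14738753, minus strand): acttgaaccgTACACTGAacgaaatgggct
bves (chrX:21059090-21059119, plus strand): tgtcaataatcaCACTGAGAgaaaatcctg
Eip75B (chr3L:18009252-18009281, minus strand): tgagttttagTACACTGAaaacataacaaa
CG6959 (chr3R:11849896-11849925, minus strand): tttctatgcaggCACTGAGAgaaaaaaagt

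Whole windows, plus strand, are given for 3 sites because they show how differently strong sites are built. The window at CG32264 holds the joined word GCACAGTGG in 2 copies, and its reverse complement CCACTGTGC at the far end. The window at aos holds 1 word, TACACTGA read on the minus strand. The window at Tlk, the strongest site of all 726, holds none of the 4 words, and its single CACTG is in capitals. The summit is the middle base of each window.
CG32264 (chr3L:3785117-3785317): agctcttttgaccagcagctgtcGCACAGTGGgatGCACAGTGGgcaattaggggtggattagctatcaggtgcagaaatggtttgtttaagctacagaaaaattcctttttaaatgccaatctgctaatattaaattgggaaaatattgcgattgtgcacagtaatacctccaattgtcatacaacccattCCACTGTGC
aos (chr3L:16480471-16480671): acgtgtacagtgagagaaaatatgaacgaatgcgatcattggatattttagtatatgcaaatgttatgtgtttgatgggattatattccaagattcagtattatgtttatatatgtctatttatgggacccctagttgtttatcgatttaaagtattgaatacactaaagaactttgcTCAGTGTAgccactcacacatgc
Tlk (chrX:3742137-3742337): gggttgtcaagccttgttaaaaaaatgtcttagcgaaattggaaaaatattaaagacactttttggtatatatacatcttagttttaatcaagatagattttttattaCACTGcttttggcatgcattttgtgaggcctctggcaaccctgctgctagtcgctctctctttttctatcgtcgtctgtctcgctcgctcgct

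The signal of distal intronic sites was low to moderate within the set. Signal here is the authors' own value per peak, whose scale is not stated, and read depth per sample is unknown. It served to rank and describe peaks within a list. The distal intronic sites had a median signal of 107 (quartiles 85.3 and 153), from 70.8 to 772. All other sites together had a median of 126, promoter sites 137, proximal sites 123, and distal sites between genes 103.5. These 4 classes came in the same order of medians in each replicate's own list. In replicate 1 the median was 63.4 for distal intronic sites against 77.6 for promoter sites, and in replicate 2 it was 46.2 against 60.1. The distributions overlapped over most of their range, and the distal intronic and intergenic classes lay nearly on each other.

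**Figure D1:**
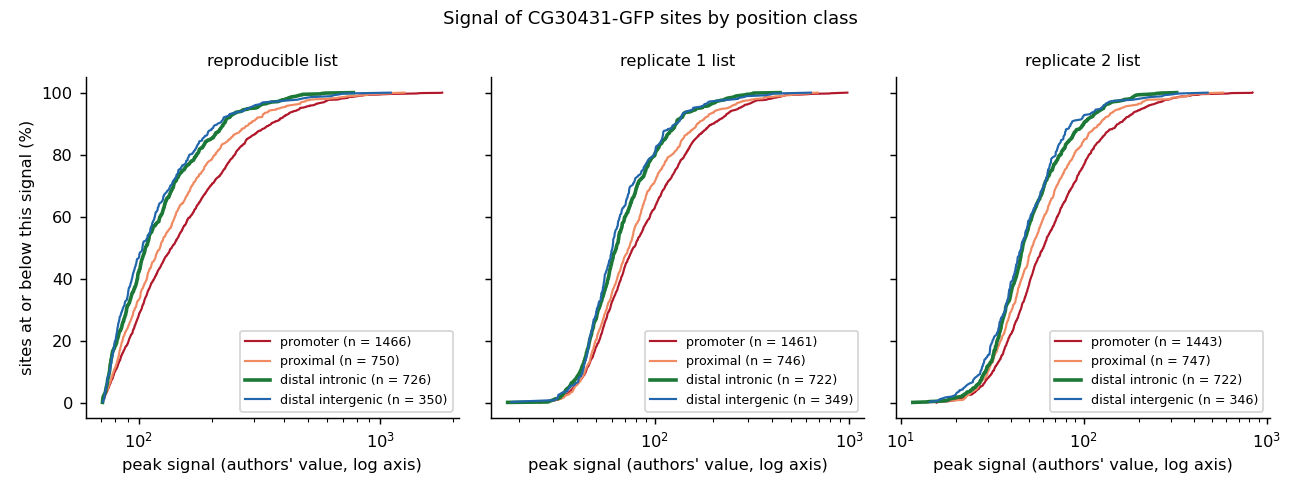
Cumulative share of sites (y axis, percent) by peak signal (x axis, log scale, the authors' value) for 4 position classes, in the reproducible list and in each replicate's list. The curve of the 726 distal intronic sites runs close to that of the 350 distal intergenic sites and to the left of the 1466 promoter sites in all 3 panels.

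The share of distal intronic sites rose as the signal fell. With the set cut by signal into 4 groups of like size, they made up 14.2% of the strongest group (95% interval 11.9% to 16.8%). It was 22.3% and 23.6% in the middle groups, and 27.5% in the weakest (24.5% to 30.7%). The intervals of the strongest and weakest groups did not overlap. Below the reproducible set the share was higher but nearly level. Among entries ranked 3315 to 10000 of the list from pooled replicates, 29.9% met the same rule of position (28.8% to 31.0%). Among those ranked 20001 to 30000 it was 31.0% (30.1% to 31.9%), and these intervals overlapped. These lower entries include background. The share of the whole genome that meets the rule is not given here. So these shares, and that of the reproducible set, were not compared with the share of sequence.

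The replicates mostly held the same distal intronic sites. Of the 726, 638 (87.9%) lay inside one of the 3314 strongest peaks of replicate 1 and 627 (86.4%) inside one of replicate 2. In both it was 547, or 75.3% (95% interval 72.0% to 78.4%), and in neither it was 8. The share in both was 71.7% for distal intergenic sites, 79.6% for proximal sites and 81.7% for promoter sites. The reproducible set was made from these lists, so the shares describe agreement and are not an independent check. A signal from each replicate was at hand for 718 distal intronic sites, across which Spearman's rho was 0.69 and Pearson's r of log2 signals 0.77. For 1439 promoter sites these were 0.83 and 0.87. The points of each correlation share their libraries, and the classes differ in range of signal. Signal in replicate 1 was higher than in replicate 2 by a median ratio of 1.35, which was 1.32 at promoter sites.

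**Figure D2:**
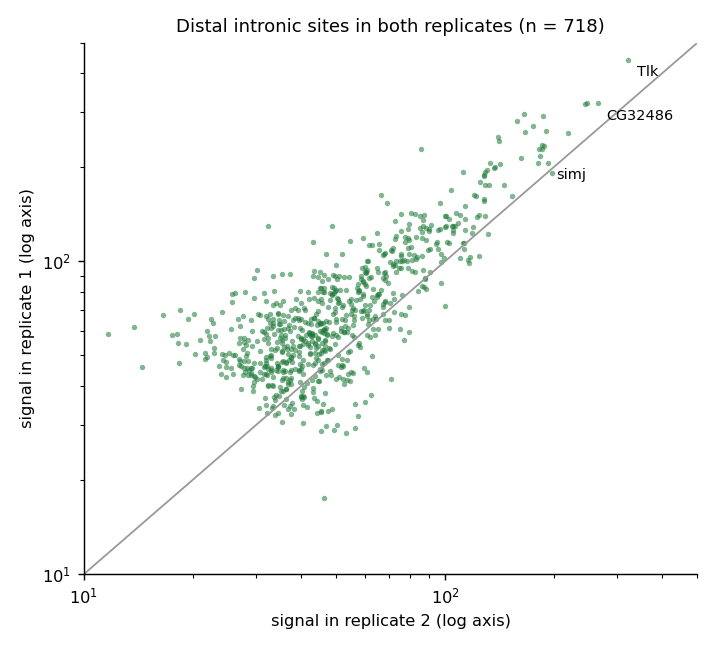
Signal of each distal intronic site in replicate 1 (y axis) against replicate 2 (x axis), both on log axes, for the 718 sites with a value in both, with a grey line where the values are equal. The strongest sites, such as Tlk, CG32486 and simj, lie at the upper end in both replicates, and the spread widens toward low signal.

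The strongest distal intronic site lay in intron 2 of Tlk, which encodes the Tousled-like kinase that acts in chromatin assembly. Its signal was 772, with 440 in replicate 1 and 321 in replicate 2, and it was rank 31 of the whole set. The other 3 sites in the same intron of 60007 bp had signals of 169, 162 and 93.2, and all 4 summits fell within 2.12 kb. The second strongest site was in intron 1 of CG32486, at 596 (320 and 265 in replicates 1 and 2). Next came Raf, the kinase that couples Ras to the MAP kinase cascade, with a site of 571 (320 and 248). A site in intron 2 of CG46321, where the nuclear receptor gene Hr3 also lies, reached 565 (319 and 244). In all 4 of these hosts the value was higher in replicate 1.

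The 20 strongest sites fell in 18 host genes. All 20 lay inside the strongest peaks of both replicates, at rank 219 or better in replicate 1 and 263 or better in replicate 2. Of the 20, 10 were in a first intron and 7 on the X chromosome. Their hosts included several regulators of transcription and signalling. Gug, the fly Atrophin co-repressor, had a site of 463 (296 in replicate 1, 166 in replicate 2). The ecdysone-response nuclear receptor gene Hr4 had sites of 456 and 418. In sbb, the brakeless co-repressor, the strongest site was 442 (281 and 158). In trx, which encodes the Trithorax histone methyltransferase, it was 427 (258 and 166). The secreted EGF receptor inhibitor gene aos had 418 (233 and 188), and aop, the ETS-domain repressor Yan, had 405 (218 and 183). The strongest site of simj, a subunit of the NuRD remodelling complex, had 403 (206 and 192). ImpL2, a secreted insulin-binding protein, closed the group at 383 (242 and 141). The remaining hosts among the 20 were CG32264 at 475, CG12769 at 474, a second Raf site at 450, babos at 426, kirre at 411, CG13894 at 393 and CG34417 at 393.

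The distance limit cut through a continuous run of sites. The members just inside it were in CG9876 at 2001 bp from a start (signal 96.2), tna at 2005 bp (228) and px at 2006 bp (122). The intronic sites just outside were in lncRNA:CR44320 at 1999 bp (105), CG1677 at 1989 bp (178) and Dys at 1985 bp (110). The median distance of the 726 sites to the nearest start was 5483 bp. Those farthest away were in hth at 49813 bp (81.1) and 47667 bp (88.96) and in mamo at 42279 bp (230). The mamo summit lay in an entry of replicate 2 (99.2) and in none of replicate 1.

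To judge where sites fell, the same rule of position was applied to every base, which gave 41.4 Mb of distal intronic sequence and 17.5 sites per Mb. First introns held 344 sites, 47.4% of the total (95% interval 43.7% to 51.1%), but 27.1% of that sequence. The density was 30.6 sites per Mb in first introns, 19.8 in intron 2, 12.4 in intron 3, 9.28 in intron 4 and 17.0 in intron 5. The 37 sites in intron 5 included all 6 of Ten-a and most of the 10 of kirre. Introns numbered 6 or higher held 29 sites in 20.4% of the sequence, or 3.43 per Mb. The median signal was alike in these groups, at 109 in first introns and 105 in intron 2. Introns were numbered on the canonical transcript where it held the site, as for 652 of the 726.

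Sites were also denser near transcript starts, although none was closer than the limit. There were 26.2 sites per Mb at 2 to 3 kb from the nearest start, 23.8 at 3 to 5 kb, 20.7 at 5 to 10 kb, 14.5 at 10 to 20 kb and 5.55 beyond 20 kb. First introns are nearer to starts, so both were set together, over bases not masked as repeats. At 2 to 3 kb the density was 40.4 per Mb in first introns and 16.8 in later ones. At 5 to 10 kb it was 30.2 and 17.4, and beyond 20 kb it was 22.4 and 4.95, the last pair from 13 and 26 sites. The density was higher in first introns in all 5 bands of distance.

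By length, the introns with a site had a median of 17446 bp (quartiles 8573 and 33990 bp). That is close to the median of 18223 bp that the sequence itself gives when each base counts once. Introns of 5 to 10 kb had 22.3 sites per Mb, those up to 5 kb 12.1 and those over 50 kb 13.7. The longest were in pum, an RNA-binding repressor of translation, with 132737 bp (site signal 86.7), in kirre with 132044 bp (97.8) and in Ptp61F, a tyrosine phosphatase, with 126467 bp (264). Along the intron from its 5′ to its 3′ end, 5 parts of equal length held between 16.1% and 24.1% of sites each. The lowest shares were in the outermost parts. The first part also had the least distal intronic sequence, 17.7% against 20.3% to 20.8% in the others. The interval of its share of sites (13.5% to 19.0%) included that value. The last part held 16.7% of sites in 20.3% of the sequence. The density was 15.9 sites per Mb in the first part, 14.4 in the last and up to 20.5 between them.

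**Figure D3:**
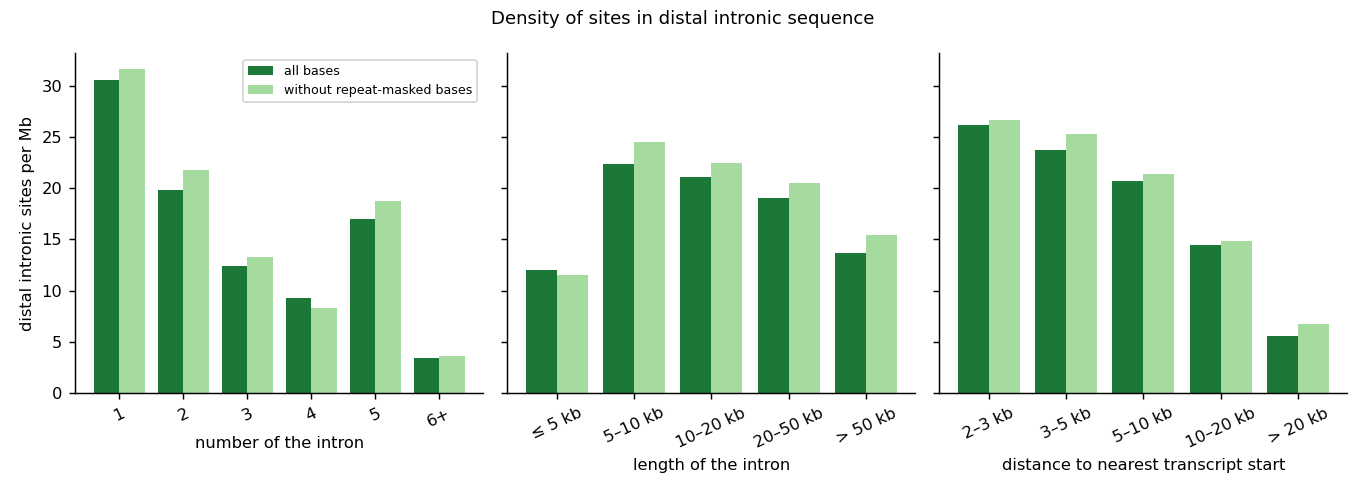
Distal intronic sites per Mb of distal intronic sequence (y axis) by number of the intron, length of the intron and distance to the nearest transcript start (x axes), over all bases (dark) and over bases not masked as repeats (light). First introns stand at 30.6 per Mb, introns 6 and later at 3.43, and both sets of bars run in the same order by intron number from 1 to 4 and by distance.

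The X chromosome carried 190 sites (26.2%, interval 23.0% to 29.5%) in 19.3% of the sequence, or 23.7 per Mb. The density was 19.3 on 2L, 16.2 on 3R, 15.5 on 3L and 14.4 on 2R, and chromosome 4 had no site in 0.445 Mb. Part of the sequence lies beyond the outermost reproducible sites of each arm, such as the introns of Myo81F and Pzl near the centromere of 3R. Counted between the outermost sites, after the values had been seen, the density was 24.0 on X, 21.8 on 3R, 20.05 on 2L, 15.9 on 3L and 15.6 on 2R. So the place of 3R in the order moved from place 3 to place 2. Reads map poorly to repeats, and the part of this in the differences was not tested. Of the 726 summits, 136 were in bases that the reference marks as repeats, and 2 were in an annotated transposable element.

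The 726 sites lay in 434 host genes, 10.0% of the 4333 genes with any distal intronic sequence, and 419 of the hosts were protein-coding. For 688 sites there was 1 host, while 35 lay in 2 overlapping genes and 3 in 3. Hosts with several sites were common. There were 165 of them (38.0% of hosts), and together they held 472 sites (65.0%). In 101 of the 165, all sites shared 1 intron. The share of genes that were hosts went up with the sequence available. Of genes with 1 to 5 kb of distal intronic sequence, 5.60% were hosts, against 19.5% at 5 to 20 kb, 30.8% at 20 to 50 kb and 46.2% of the 169 genes with over 50 kb. The density fell from 26.6 to 11.4 sites per Mb over the same groups.

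The host with most sites was kirre on X, an immunoglobulin-family adhesion protein of myoblast fusion, with 10 sites in 3 introns. One lay 46.4 kb from the gene start (signal 175). The other 9 lay between 238 and 357 kb, after a gap of 191473 bp. The last was the strongest, at 411 (229 in replicate 1, 182 in replicate 2), and the other 8 ranged from 77.2 to 155. A close neighbour 746 bp from the last had a signal of 96.9.

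In sbb, 8 sites shared intron 1. The 3 strongest, of 381, 442 and 317, stood side by side at 18.8, 20.1 and 22.0 kb from the gene start. The other 5 ranged from 77.6 to 145. This gene also had a promoter site, with a signal of 349. Raf had 7 sites, all in intron 2. Along the gene their signals were 571, 225, 450, 208, 222, 122 and 134, and 6 of the 7 lay between 2.26 and 11.1 kb from the gene start. In replicate 1 they ranged from 65.4 to 320 and in replicate 2 from 48.7 to 248, with the site nearest the gene start highest in both.

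The GATA cofactor gene ush had 7 sites in intron 1, in 2 groups. The 3 nearer to the gene start, at 5.83 to 12.1 kb, had signals of 87.5, 106 and 82.4. The 4 farther ones, at 34.4 to 44.6 kb, had 109, 103.8, 137 and 238. In hth, a TALE homeodomain gene, 7 sites were spread over 5 introns and 91.2 kb, with signals from 76.5 to 193. Hr4 had 6 sites in 4 introns, where values of 456, 418 and 315 contrasted with 82.9, 88.1 and 133.

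Of the remaining hosts with 6 sites or more, tara, a regulator of the SERTAD family, had signals from 74.4 to 353. The transcription factor gene apt ranged from 82.8 to 217. The RhoGAP gene cv-c ranged from 76.6 to 106 and the teneurin gene Ten-a from 76.6 to 107, so each kept to low values throughout. The non-coding gene lncRNA:CR44357 had 8 sites of 74.0 to 269, of which 6 also lay in the overlapping gene CG1677.

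Another 10 hosts had 5 sites each. Among them were Eip75B, an ecdysone-induced nuclear receptor (highest signal 229), the Hox gene Antp (156) and Snoo of the Ski and Sno co-repressor family (145). Echinoid, the adhesion protein encoded by ed (151), and the bithorax-complex transcript lncRNA:iab8 (133) belonged to it too. The 5 sites of Antp were also those of the overlapping CG46458. The others were CG42238 (214), SKIP (171), mtgo (154) and CG43658 (142). Of the hosts with 4 or more sites, Kdm2, a histone demethylase gene, had the most for its amount of distal intronic sequence. It had 4 sites in 3.01 kb of that sequence (highest signal 239). They spanned 2.31 kb, against 2.12 kb for the 4 sites of Tlk. With summits within 500 bp counted once, Kdm2 had 3 sites and Tlk 2.

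**Figure D4:**
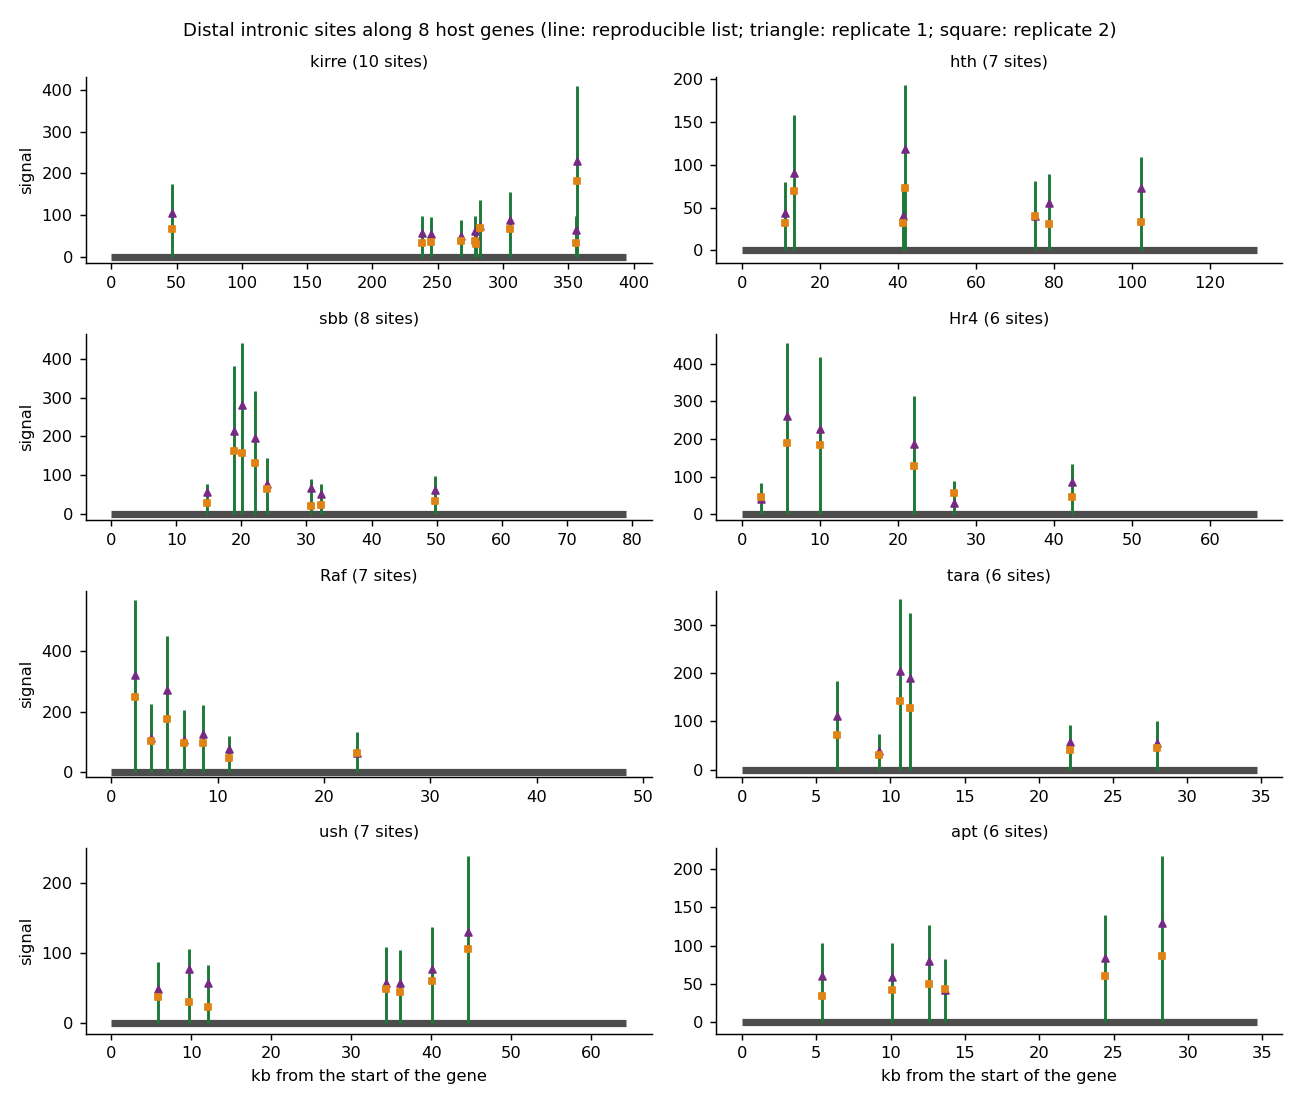
Position of distal intronic sites (x axis, kb from the start of the gene) and their signal (y axis) along 8 host genes, as lines for the reproducible list, triangles for replicate 1 and squares for replicate 2, with the gene as a grey bar. Sites of sbb, Raf and tara crowd within a stretch of each gene, while those of hth spread over 91.2 kb, and replicate 1 is mostly above replicate 2.

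Spacing was uneven in general. The median distance from a distal intronic site to the nearest other one was 11916 bp, and the shortest was 199 bp. Of the 726, 92 (12.7%) had another within 1000 bp, 169 (23.3%) within 2000 bp and 348 (47.9%) within 10000 bp. At distances below the fragment length of 200 to 800 bp, neighbouring summits may not be separate events of binding. When summits within 500 bp were counted once, 159 hosts in place of 165 had several sites.

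Many genes with large introns had no site. Of the 20 genes with most distal intronic sequence, 14 had no site, and of the 100 largest 51 had none. The list without a site was led by Myo81F, Pzl, lovit, CG17684 and DIP-lambda, then bru3, an RNA-binding protein gene with 244 kb, and Snap25, a synaptic SNARE gene with 217 kb. Rbp6, heph, dpr8 and dpr6, each with over 121 kb, had none either. Myo81F, Pzl and DIP-lambda are among the largest genes with distal intronic sequence beyond the outermost reproducible sites of their arms. The first 5 genes had 32.3% to 46.8% of their distal intronic sequence marked as repeats. The part of this in the absence of sites was not tested. By contrast, kirre had 10 sites in 288 kb and Ten-a 6 in 212 kb.

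Hosts carried a promoter site more often than genes without a distal intronic site. It was present at 105 of 434 hosts (24.2%, interval 20.2% to 28.5%) and at 626 of the other 3899 genes with distal intronic sequence (16.1%, 14.9% to 17.2%). Among coding genes with over 50 kb of such sequence it was 23 of 72 hosts (31.9%, 21.4% to 44.0%) and 4 of 89 others (4.49%, 1.24% to 11.1%). Those others include genes such as Myo81F and Pzl, with sequence beyond the outermost sites of the arm. At 20 to 50 kb it was 21.1% of 128 hosts (14.4% to 29.2%) and 13.4% of 283 others (9.68% to 18.0%), with overlapping intervals. At 5 to 20 kb it was 25.8% of 163 hosts (19.2% to 33.2%) and 15.3% of 675 others (12.6% to 18.2%), with intervals apart. At 1 to 5 kb it was 12 of 55 hosts (21.8%) and 161 of 911 others (17.7%), where the intervals overlapped.

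Host genes were also read against 8 gene lists, drawn up from general knowledge with earlier results of these peaks known. For each list the number of hosts is given out of the members with distal intronic sequence, beside 419 of 4216 for all protein-coding genes (9.94%, 17.6 sites per Mb). Signalling genes had 17 hosts of 36 (47.2%, interval 30.4% to 64.5%) and 53.5 sites per Mb. Nuclear receptor genes had 5 of 15 (33.3%) and 52.6 per Mb, and developmental transcription factors 24 of 75 (32.0%) and 31.3 per Mb. Ion channel and receptor genes lay at the other end, with 3 hosts of 44 (6.82%, interval 1.43% to 18.7%) and 2.55 sites per Mb.

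Among the signalling genes of the list, which does not include Raf, the highest sites were those of aos (418) and aop (405), given above, and of the Wnt receptor gene fz, with 4 sites up to 340 (207 and 133 in replicates 1 and 2).

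Of the 5 nuclear receptor hosts, ftz-f1 and Hr38 had highest signals of 89.2 and 71.7. Hr3, Hr4 and Eip75B reached 565, 456 and 229, and the number of their sites was 3, 6 and 5. Developmental transcription factors reached lower. Their highest sites were those of ush (238), mamo (230) and hth (193). Of the Hox genes, Antp, Ubx, Abd-B, pb and lab were hosts as well, with highest signals of 156, 81.8, 121, 85.3 and 79.4. Dfd, Scr and abd-A had no distal intronic site. The median signal of all sites in this list was 100.1, against 144 for nuclear receptors and 128 for signalling genes.

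Cell adhesion and axon guidance genes had 17 hosts of 66 (25.8%) and 14.3 sites per Mb, below the value for all coding genes. They were led by kirre (411), the semaphorin gene Sema1a (200.5) and the netrin gene NetA (183). The RNA-binding regulators had 6 of 17 (35.3%) and 6.96 sites per Mb, led by shep (247), Rbfox1 (218) and how (146). Cytoskeleton and polarity genes had 5 of 25 and 21.6 per Mb, led by scrib (110), sdt (95.3) and trio (80.7). The 2 muscle hosts of 18 were Mef2 (117) and if (113), with 10.3 sites per Mb. The 3 ion channel hosts were Ca-alpha1T (102), Ih (98.9) and mAChR-B (92.1). A share of hosts and a density can differ because genes of these lists differ in intron length, and no test was made of either.

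The words shown at the outset were found at a minority of sites. At least 1 of the 4 lay in the windows of 132 of the 726 sites (18.2%, interval 15.4% to 21.2%). In 190113 windows of the same width tiled over distal intronic sequence, away from any summit, the share was 2.31%. It was 22.9% at distal intergenic sites, 14.7% at proximal sites and 10.1% at promoter sites. Thus both distal classes held the words more often than promoter sites. The CACTGTG form was at 8.13% of distal intronic sites and 6.48% of promoter sites, with overlapping intervals. The CACTGA form was at 10.2% (8.09% to 12.6%) and 3.82% (2.90% to 4.93%), with intervals apart. It was more frequent still at distal intergenic sites, at 16.6% (12.8% to 20.9%), again with intervals apart. At proximal sites it was at 7.60% (5.81% to 9.73%), which overlapped the interval of distal intronic sites. A single site, in Eip75B, had both forms.

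The bare core CACTG, which makes no use of the flanks, was in 396 windows (54.5%) against 27.1% of tiled windows, so 330 sites (45.5%) had none. CACTG was in 59.7% of windows at distal intergenic sites, 54.5% at proximal sites and 45.3% at promoter sites. The joined word of 9 bases CCACTGTGC was at 5.65% of sites and in 0.320% of tiled windows, which is the form seen at CG32264, Ubr3, CHES-1-like, CG8034 and Sema1a. This joined word was at 5.07% of proximal, 4.09% of promoter and 2.86% of distal intergenic sites. Around all 81 matches of CACTGTG with enough sequence on each side, the base before it was C in 56.8% and the base after it C in 64.2%. In tiled windows these were 34.9% and 34.2%.

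The second form had a longer context. Around all 141 matches of CACTGA, the base before was G in 42.6% or A in 38.3%, and the base 2 before was T in 56.7%. The base after was G in 48.9%. Bases 2, 4, 5 and 6 after it were A in 61.0%, 65.2%, 68.8% and 67.4%, where tiled windows had 33.5% to 36.4%. The lines for aop, bves and CG6959 show this run as GAGAAA. The word GAGAGAAA, which can begin on the last 2 bases of CACTGA, was in 54 windows (7.44%, against 1.42% of tiled windows). It began there in 26 of the 54, and 29 held CACTGA anywhere. The word TGCACTGA was at 5.51% of sites and in 0.780% of tiled windows. At distal intergenic sites GAGAGAAA was at 10.3% and TGCACTGA at 9.14%, with intervals that overlapped those of distal intronic sites. At promoter sites they were at 2.39% and 2.25%.

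On the strand that reads CACTG, the 2 forms were placed on opposite sides of the summit. This depends on that choice of strand, since the first form read as its reverse complement CACAGTG would change sides. Read on its own strand, the CACTGTG form lay a median of 57.5 bp downstream of the summit, and 58 of 66 matches were downstream. The CACTGA form lay a median of 59 bp upstream of it, as did 69 of its 78 matches. With respect to transcription of the host, 73 of the 144 matches were on the same strand, which is close to an even split. These medians come from windows that end 100 bp from the summit, which limits them. With 200 bp to either side, a width added after the values had been seen, the CACTGTG form had 109 matches at a median of 68 bp downstream, and 92 were downstream. The CACTGA form then had 128 matches, 89.8% of them upstream, with a median of -84 bp from the summit. A word was at 27.5% of sites with 200 bp to either side (4.58% of tiled windows of that width), and at 5.23% with 50 bp (1.12% of tiled windows).

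**Figure D5:**
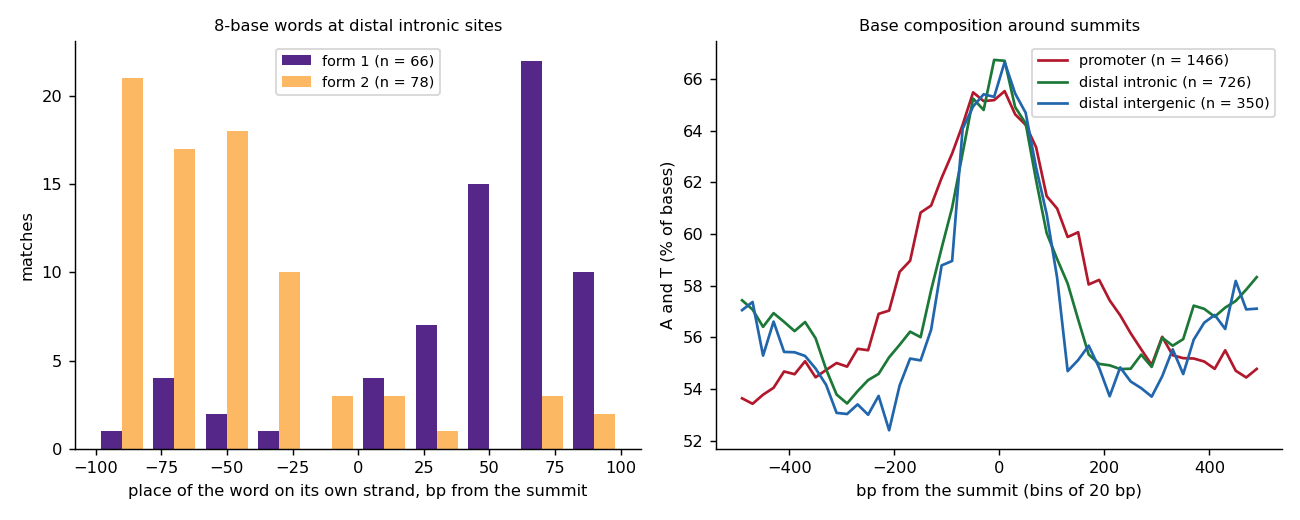
Left, number of matches of the CACTGTG form (form 1) and the CACTGA form (form 2) at distal intronic sites by place on the strand of the word, in bp from the summit, in windows that end at 100 bp. Right, percent of A and T in bins of 20 bp by distance from the summit for 3 classes. Form 1 lies mostly to the right of the summit and form 2 mostly to the left, and A and T peak at the summit in all 3 classes.

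The summit itself was rich in A and T. The share of A and T was 66.7% in the bins on each side of the summit and 53.5% at 290 bp to the left on the plus strand. The median GC content of the windows was 35.8%, against 40.3% of tiled windows, and the same value of 35.8% held for distal intergenic and proximal sites. Base composition moves with the count of any word, and its part in the shares above was not tested.

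Sites with and without a word had similar median signals. The median was 110 for 59 sites with the CACTGTG form, 106 for 74 with the CACTGA form, and 106 for 594 with neither. The upper quartiles differed more, at 169, 187 and 147 in that order. With these sites cut by signal into 4 groups of like size, 23.6%, 13.2%, 21.0% and 14.9% had a word from the strongest group to the weakest, and all 4 intervals overlapped. Of the 20 strongest sites, 6 had a word. First and later introns had shares of 17.2% and 19.1%, and the X chromosome and the autosomes 18.4% and 18.1%.

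Other known motifs were counted in the same windows. The DRE word TATCGATA, bound by the factor DREF at many housekeeping promoters, was at 2 sites (0.275%), in 0.452% of tiled windows and at 4.23% of promoter sites. The shorter BEAF-32 core CGATA, which lies within it, was at 19.7% of sites and in 19.9% of tiled windows, with 32.9% at promoters. GAGAG, the core of GAGA factor sites, was at 24.2% (tiled 21.4%). It also lies within the word GAGAGAAA of the CACTGA context, and matches there were not counted apart. GCCAT, the core of Pho sites, was at 24.4% (tiled 35.7%). The CTCF core AGNNGGCGC was at 22 sites (3.03%, interval 1.91% to 4.55%; tiled 1.28%), with 3.14% at promoters. The Zelda word CAGGTAG was at 10 sites (1.38%; tiled 0.878%). A match is only a match of letters within the window.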

How the data were processed

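Embryos of 1 CG30431-GFP line were used for 2 biological replicates of 1 group, per the labels. The deposited dm6 files are peak lists of each replicate, of both pooled (30000 entries) and of the reproducible set, selected by irreproducible discovery rate per the deposited readme. The signal is the authors' value per peak, with unstated scale. The deposited −log10 q-value was not used to filter. For the aligner, peak caller and threshold, names and versions are not given in sources used here. No read counts were used, so depth is unknown. The replicate value of a site was read from the strongest entry of that replicate's list over its summit. The dm3 lists were not used. Sites were placed on Ensembl release 115 models (BDGP 6.54), and sequence came from the matching RefSeq genome, also of dm6.

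Members and lists were chosen with earlier results of these data known. Of the list names, 4 matched no gene. A site in overlapping genes was counted for each host. For introns, the shortest protein-coding host was used. Tiled windows lay over 1000 bp from any summit. Intervals are exact binomial (Clopper-Pearson) and cover counting only. Genes named are hosts of the 20 strongest sites, hosts with 5 or more sites, the 3 leading hosts of each list, sites in the 3 longest introns, the 3 farthest from a start and the 3 on each side of the limit. Others were named after values were seen. The replicates may share technical factors, and no test was made. Classification and word search were checked on simulated gene models and sequences. Tools were pandas 2.3.3, numpy 2.4.6, matplotlib 3.10.9 and scipy 1.17.1 under Python 3.11.15. Alternatives changed the distance limit, signal, gene models, intron definition, window width and replicate.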

Additional observations from a re-analysis of the deposited data

How the results depend on the processing

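The number of distal intronic sites was 986 at a limit of 1000 bp, 401 at 5000 bp and 303 among the 1657 strongest peaks. Their share was 29.8% at 1000 bp, 12.1% at 5000 bp and 18.3% among the 1657 strongest, where 70 hosts had several sites. The share in a first intron was 59.9% when any transcript counted, in 37.0% of the sequence. When every transcript had to, it was 35.0%, in 22.4% of the sequence. The median intron was 14039 bp between merged exons, and 17827 to 17875 bp with either replicate alone. A word was at 5.23% of sites with 50 bp on each side and at 27.5% with 200 bp. With a single replicate, the median signal was 46.2 to 63.4, and that of all other sites 54.7 to 72.7, since these come from other lists. Chosen after seeing the data, first introns held 27.9% of sequence without masked bases and 28.9% between the outermost sites of each arm, where density was 19.5 sites per Mb in all and 14.4 in later introns. Of 48 alternatives, 27 were counted as leaving their value the same, by limits that differed between kinds of value. By those limits the 986 sites at 1000 bp passed as the same. The medians of 17827 and 17875 bp did not. No paired analysis was possible because there was 1 group. Unknown depth limits what can be said of weak sites.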
